A study of Mus musculus with 12 samples.

Results

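The sterol and fatty acid synthesis genes are the enzymes that build cholesterol and fatty acids, with the transcription factors that set their expression. A list of 38 genes was taken, 20 of the sterol pathway (targets of SREBP2) and 18 of lipogenesis (targets of SREBP1), and every probe set carrying 1 of these symbols in the platform annotation was used. Of the 38 genes, 36 were found among the 12393 genes measured, 18 in each class, by 71 of 22626 probe sets. Insig1 and Acat2 matched no probe set and were not analysed here.

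The tumor-bearing mice were female nude NCR mice engrafted orthotopically with 4T1, a metastatic line of mouse mammary carcinoma. The control mice, of the same strain and sex, had PBS injected at that site instead. Lung and liver were taken on day 7, and the titles call the organs of tumor-bearing mice pre-metastatic, so the comparison asks what differs in these organs early after engraftment. All mice shared the nude background, which lacks a working thymus and most T cells. There were 3 Affymetrix arrays for each of the 4 groups (tumor-bearing liver, control liver, tumor-bearing lung and control lung), 12 altogether. Values are log2 expression as the authors deposited it, and a level can be compared between arrays but not between probe sets. Precision is limited by the number of arrays. The design text counts 3 tumor-bearing and 3 control mice for both tissues, so liver and lung came from the same mice, and the descriptions carry numbers that 1 liver and 1 lung array each share. No label says that such a number marks a mouse, so arrays were treated as unpaired. The p-values measure only the spread between these arrays.

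Cholesterol is built from acetyl-CoA through mevalonate, isoprenoid units, squalene and lanosterol. SREBP2 is cut free from the membrane and enters the nucleus when sterol is scarce, and it switches on most genes of this route. SREBP1c, which insulin raises, does the same for fatty acid and triglyceride synthesis, together with the sugar-sensing factor ChREBP. Both routes are active in hepatocytes, and lung alveolar type II cells use them to make surfactant lipid.

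The upstream sequence of 4 members is shown because SREBP proteins act at promoters together with the factors NF-Y and Sp1. Hmgcs1, Mvk and Idi1 lie early in the sterol route and are among the members with higher liver values below, and Elovl6 is the lipogenic gene with the lowest change there. Each line gives the 250 bases before the start site, 5′ to 3′ on the gene's strand, from RefSeq on build GRCm38.p6. Capitals mark matches on either strand to a sterol regulatory element core (TCACNCCAC), an NF-Y box (CCAAT), an E-box (CACGTG) or an Sp1 box (GGGCGG). No base belonged to more than 1 motif in these windows.

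Hmgcs1: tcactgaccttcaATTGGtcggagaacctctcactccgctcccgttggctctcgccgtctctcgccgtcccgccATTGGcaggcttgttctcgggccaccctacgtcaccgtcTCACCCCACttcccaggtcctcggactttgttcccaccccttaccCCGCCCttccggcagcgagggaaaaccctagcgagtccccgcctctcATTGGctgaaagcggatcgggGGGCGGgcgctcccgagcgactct
Mvk: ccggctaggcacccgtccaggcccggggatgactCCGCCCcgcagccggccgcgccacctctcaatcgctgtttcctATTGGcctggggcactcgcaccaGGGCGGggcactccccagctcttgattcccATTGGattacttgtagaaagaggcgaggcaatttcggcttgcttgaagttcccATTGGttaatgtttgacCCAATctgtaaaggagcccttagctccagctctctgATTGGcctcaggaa
Idi1: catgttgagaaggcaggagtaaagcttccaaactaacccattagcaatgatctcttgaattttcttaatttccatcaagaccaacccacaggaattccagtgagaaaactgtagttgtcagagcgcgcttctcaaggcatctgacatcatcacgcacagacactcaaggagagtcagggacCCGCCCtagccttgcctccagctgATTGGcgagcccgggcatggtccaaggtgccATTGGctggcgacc
Elovl6: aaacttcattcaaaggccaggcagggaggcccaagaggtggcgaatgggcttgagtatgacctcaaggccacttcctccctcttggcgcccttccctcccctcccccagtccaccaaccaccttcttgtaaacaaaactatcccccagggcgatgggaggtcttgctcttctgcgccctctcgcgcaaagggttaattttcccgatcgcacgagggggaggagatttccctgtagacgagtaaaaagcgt

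The Hmgcs1 window (chr13:119690101-119690350, plus strand) held 1 sterol regulatory element core, beginning 137 bases before the start site, with 3 NF-Y boxes and 2 Sp1 boxes. The Mvk window (chr5:114444019-114444268, plus strand) held 5 NF-Y boxes and 2 Sp1 boxes. The Idi1 window (chr13:8885356-8885605, plus strand) held 2 NF-Y boxes and 1 Sp1 box. None of the letters searched was found in the Elovl6 window (chr3:129532136-129532385, plus strand). The shares below are over promoter windows that reach from 250 bases before to 50 bases after a start site. The table held windows for 14 of the 18 sterol genes measured and 14 of the 18 lipogenic genes, 17 and 20 windows. An NF-Y box was in 82.4% of sterol windows, 60% of lipogenic windows and 37.4% of all 32851 windows. An Sp1 box was in 82.4% of sterol windows, 40.0% of lipogenic windows and 35.7% of all windows. The sterol regulatory element core was in 1 window of each class, those of Hmgcs1 and Mlxipl, and in 1.24% of all windows. The E-box was in 3 sterol windows, 2 lipogenic windows and 7.15% of all windows. These matches describe letters and not bound sites, and a missing match says only that these letters are not in the window.

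Tissue labels were checked on defining transcripts. Alb, the hepatocyte albumin gene, read 16.05 to 16.20 on the 6 liver arrays, and the surfactant gene Sftpc, which marks alveolar type II cells, 15.70 to 15.86 on the 6 lung arrays. In lung, Alb read 14.39, 10.38 and 8.96 in tumor-bearing mice, against 11.08, 9.31 and 14.65 in control mice. Thus 1 lung array of each group, tumor-bearing replicate 1 and control replicate 3, carried more hepatocyte transcripts than the others. Cardiac muscle transcripts varied between lung arrays as well. The mean level of 6 such markers was 6.99, 10.62 and 9.84 in tumor-bearing lungs, against 4.60, 10.69 and 11.53 in control lungs. Their part in the members' values was not tested. Sftpc read 6.54 in liver of control replicate 2, against 2.24 to 2.63 on the other liver arrays. Correlations within a group were 0.989 to 0.996. In whole tissue, fewer cells of a type and less RNA per cell cannot be told apart.

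In liver, most sterol genes had higher means in tumor-bearing than in control mice and most lipogenic genes had lower ones, but no member passed the test. Of the 18 sterol genes, 15 had a higher mean in tumor-bearing livers, and the median log2 change was 0.52. Of the 17 lipogenic genes tested, 13 had a lower mean and the median change was -0.22. Over all 7712 genes tested the median change was -0.07, with 39.5% of means higher and 60.1% lower. No member passed limma's test at an adjusted p under 0.05, against 1.87% of all genes (144 genes). At an unadjusted p under 0.05, 7 sterol genes were higher and none lower, against 8.17% of all genes higher. By the same measure 1 lipogenic gene was higher and 3 were lower (17.6%), near the 17.7% of all genes lower. In either direction 25.9% of all genes were past it. A gene was tested where at least 3 of the 6 liver arrays read above 4. All 18 sterol genes passed this filter, and so did every lipogenic gene but Acaca.

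**Figure D1:**
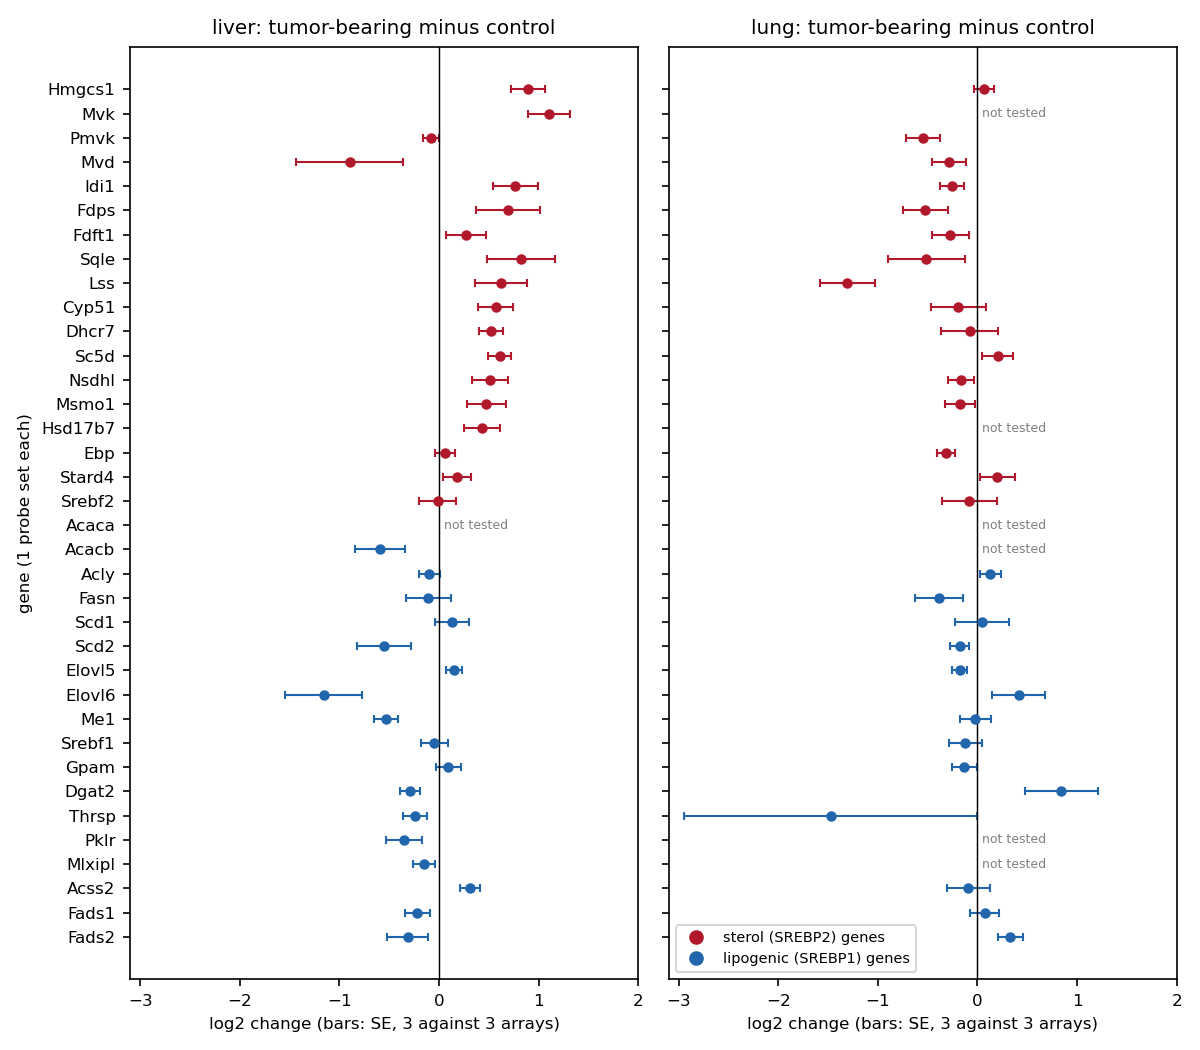
Log2 change of each member, tumor-bearing minus control, in liver (left) and lung (right), with the standard error of the limma fit on 3 against 3 arrays. Red points are sterol genes and blue points lipogenic genes. In liver 15 of 18 red points lie right of 0 and 13 of 17 blue points left of it, and in lung 13 of 16 red points lie left of 0.

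The tumor-bearing and control arrays did not overlap for 11 of the 18 sterol genes in liver (61.1%), all of them higher in tumor-bearing mice. Over all genes 10.4% were apart in that direction and 22.7% in the other. The gap between the nearest arrays of the groups was 0.17 or more for Idi1, Dhcr7, Sc5d, Hmgcs1 and Mvk. For Fdps, Msmo1, Lss, Sqle, Nsdhl and Cyp51 it was 0.09 or less, so that these 6 were apart by little.

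Mvk and Hmgcs1, enzymes of the first steps, had the largest positive changes. Hmgcs1, the HMG-CoA synthase of the cytosol, read 14.42, 14.75 and 14.73 in tumor-bearing livers, against 13.79, 13.45 and 13.98 in control livers. Every tumor-bearing array was above every control array. The means were 14.63 ± 0.19 and 13.74 ± 0.27 (SD, n = 3 each), a 1.86-fold difference (log2 change 0.90 ± 0.17 SE, limma adjusted p = 0.0585). All 4 probe sets of Hmgcs1 were apart in this direction, with changes of 0.88 to 1.31. With every probe set tested by itself, 1 set of Hmgcs1 passed (0.95 ± 0.14 SE, adjusted p = 0.0494), and no other probe set of a member did, against 1.53% of all probe sets.

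Mvk codes for mevalonate kinase. It read 5.95, 6.15 and 5.80 in tumor-bearing livers, against 5.21, 4.90 and 4.47 in control livers, low on the scale of the arrays. The groups did not overlap, and the change was 1.11 ± 0.21 (SE, 2.15-fold, adjusted p = 0.0587). Idi1, which interconverts the isoprenoid units, read 12.52, 13.04 and 13.07 in tumor-bearing livers, against 12.25, 11.73 and 12.35 in control livers. Again no tumor-bearing array lay within the control range, with a change of 0.77 ± 0.23 (SE, adjusted p = 0.114). Fdps, the farnesyl diphosphate synthase, read 12.80, 13.03 and 13.55 in tumor-bearing livers, against 12.68, 11.82 and 12.80 in control livers (change 0.69, adjusted p = 0.238). Here the lowest tumor-bearing array and the highest control array were nearly level.

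The middle of this segment did not follow. Mvd, the decarboxylase that makes isopentenyl diphosphate, read 6.96, 8.03 and 7.66 in tumor-bearing livers, against 9.52, 7.66 and 8.15 in control livers. The groups overlapped and control replicate 1 stood highest. The mean was 7.55 ± 0.55 in tumor-bearing and 8.45 ± 0.96 in control livers, with a change of -0.90 ± 0.54 (SE, adjusted p = 0.344). The other probe set of Mvd ran the same way (-1.16). Pmvk, the kinase before it, had a change of -0.08 with overlapping arrays.

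In the squalene and lanosterol segment, Sqle, the squalene epoxidase, read 11.55, 12.15 and 12.31 in tumor-bearing livers, against 11.49, 10.53 and 11.53 in control livers (change 0.82 ± 0.34 SE, adjusted p = 0.202). Lss, the lanosterol synthase, read 10.53, 10.85 and 11.11 in tumor-bearing livers, against 10.52, 9.71 and 10.40 in control livers (change 0.62 ± 0.26 SE, adjusted p = 0.205). In both genes tumor-bearing replicate 1 and the highest control array were almost level, while control replicate 2 stood well below the other arrays. Cyp51, the lanosterol demethylase, read 11.05, 11.61 and 11.48 in tumor-bearing livers, against 10.96, 10.65 and 10.83 in control livers (change 0.57 ± 0.17 SE, adjusted p = 0.115). Fdft1, the squalene synthase, had overlapping arrays and a change of 0.27, while its other tested probe set was apart with 0.65.

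Among the late steps, Sc5d, the lathosterol oxidase, read 13.64, 13.64 and 13.66 in tumor-bearing livers, against 13.09, 12.81 and 13.21 in control livers. The tumor-bearing arrays were nearly identical and all above the controls, with a change of 0.61 ± 0.12 (SE, 1.53-fold, adjusted p = 0.0587). Dhcr7, which makes cholesterol from 7-dehydrocholesterol, read 12.30, 12.65 and 12.58 in tumor-bearing livers, against 12.11, 11.92 and 11.93 in control livers (change 0.53 ± 0.12 SE, adjusted p = 0.0791). No array of Dhcr7 overlapped between the groups. Nsdhl, a sterol dehydrogenase that takes part in demethylation, read 11.29, 11.71 and 11.82 in tumor-bearing livers, against 11.16, 10.85 and 11.26 in control livers (change 0.51, adjusted p = 0.152). Msmo1, the methylsterol oxidase, read 13.21, 13.63 and 13.59 in tumor-bearing livers, against 13.15, 12.64 and 13.21 in control livers (change 0.48, adjusted p = 0.201). For Nsdhl and Msmo1 the arrays were apart only by a narrow margin. Hsd17b7, a sterol ketoreductase, overlapped with a change of 0.43, and its other probe set was apart with 1.25. Ebp, the sterol isomerase, had a change of 0.07 and the cholesterol carrier Stard4 of 0.18, and the arrays of both overlapped.

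Srebf2, which codes for SREBP2, had the same level in both groups of livers on its main probe set. It read 7.06, 7.61 and 7.06 in tumor-bearing livers, against 7.38, 7.06 and 7.32 in control livers (change -0.01 ± 0.19 SE, adjusted p = 0.977). Its other probe set was apart and higher (0.33). Of the 11 sterol genes with several tested probe sets in liver, Srebf2 was the only one whose sets disagreed in sign. Over all 31 tested probe sets of sterol genes, 27 had higher means in tumor-bearing livers, against 41.7% of all 12993 probe sets tested. Of the 31, 21 were apart in that direction, against 11.6% of all probe sets. Over the 30 tested probe sets of lipogenic genes, 11 had higher means and 19 lower ones, with 5 apart and higher and 6 apart and lower. Shares lower were not taken over all probe sets. By gene, 60.1% of all means were lower and 22.7% of all genes were apart and lower. Sets of 1 gene are not independent of each other.

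**Figure D2:**
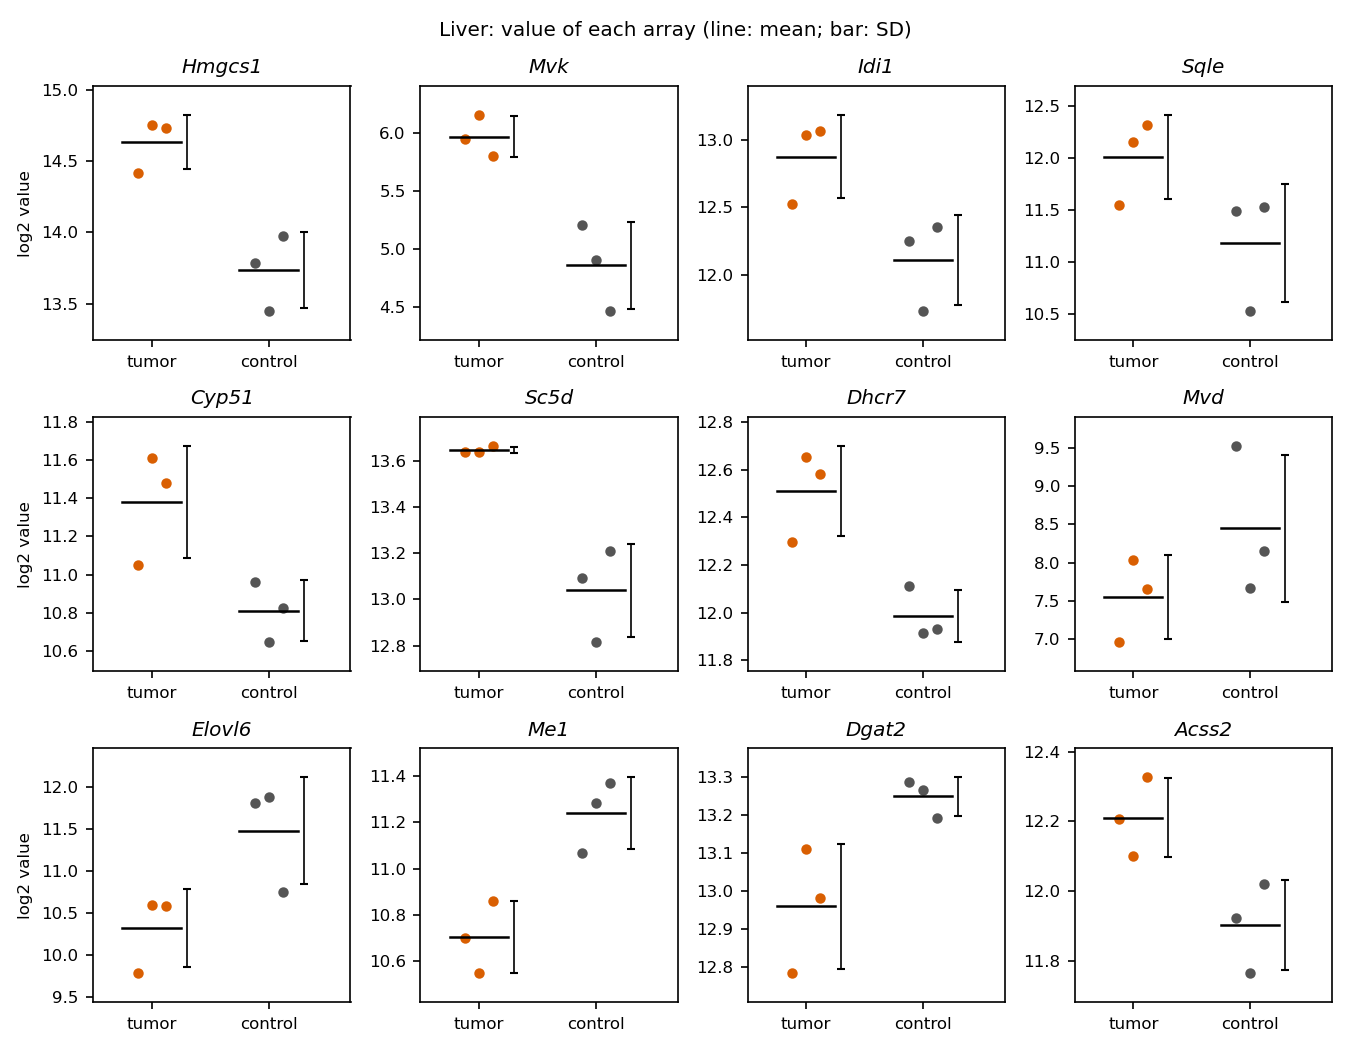
Log2 value of each liver array for 12 members, tumor-bearing (orange) left of control (grey), with the group mean as a line and the SD as a bar (n = 3 each). Each panel has its own axis, which does not begin at 0. Hmgcs1, Mvk and Sc5d show the widest gaps between the groups, Mvd overlaps, and Elovl6, Me1 and Dgat2 are lower in tumor-bearing livers.

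Lipogenic genes were mixed, with 2 apart and higher in tumor-bearing livers (11.8%) and 5 apart and lower (29.4%, against 22.7% of all genes). Elovl6, which elongates palmitate to stearate, read 9.78, 10.59 and 10.58 in tumor-bearing livers, against 11.81, 11.88 and 10.74 in control livers. The groups did not overlap, but control replicate 3 lay much closer to the tumor-bearing arrays than the other controls did. The means were 10.32 ± 0.46 and 11.48 ± 0.64 (SD, n = 3 each), a change of -1.16 ± 0.39 (SE, 2.23-fold lower, adjusted p = 0.139). Its other probe set gave -0.98 and was apart as well. Me1, the malic enzyme that supplies NADPH, read 10.70, 10.55 and 10.86 in tumor-bearing livers, against 11.07, 11.28 and 11.37 in control livers (change -0.53 ± 0.12 SE, adjusted p = 0.077). On this probe set all 3 tumor-bearing arrays of Me1 were below all controls. The other set of Me1 had a change of -0.16 with overlapping arrays.

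Triglyceride and sugar-linked members had smaller differences. Dgat2, which makes triglyceride, read 12.78, 13.11 and 12.98 in tumor-bearing livers, against 13.29, 13.27 and 13.19 in control livers (change -0.29, adjusted p = 0.154). Thrsp, known as Spot 14 and induced with lipogenesis, read 14.97, 15.32 and 15.35 in tumor-bearing livers, against 15.49, 15.43 and 15.43 in control livers (change -0.24, adjusted p = 0.265). Pklr, the liver pyruvate kinase, read 10.34, 11 and 10.89 in tumor-bearing livers, against 11.11, 11.14 and 11.04 in control livers (change -0.35, adjusted p = 0.284). In these 3 genes the tumor-bearing arrays were all lower, and replicate 1 was the lowest. The probe sets of Pklr disagreed in sign, with 0.32 on 1 of the others. The other sets of Dgat2 (-0.15) and Thrsp (-0.39) had overlapping arrays.

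Acacb, an acetyl-CoA carboxylase tied to the control of fat oxidation, read 8.28, 8.78 and 8.82 in tumor-bearing livers, against 9.21, 9.62 and 8.81 in control livers (change -0.59, adjusted p = 0.209). Scd2, a stearoyl-CoA desaturase, read 6.71, 6.49 and 7.24 in tumor-bearing livers, against 7.63, 7.54 and 6.92 in control livers (change -0.55, adjusted p = 0.26). In both genes control replicate 3 fell inside the tumor-bearing range. On the other side, Acss2, which makes acetyl-CoA from acetate, read 12.21, 12.10 and 12.33 in tumor-bearing livers, against 11.92, 11.76 and 12.02 in control livers (change 0.31, adjusted p = 0.137). Elovl5, an elongase of polyunsaturated fatty acids, read 14.43, 14.38 and 14.37 in tumor-bearing livers, against 14.14, 14.24 and 14.35 in control livers (change 0.15, adjusted p = 0.286). Both were apart and higher, Elovl5 by a very small gap.

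On the probe sets used, the central enzymes of fatty acid synthesis differed little between the groups of livers. Fasn, the fatty acid synthase, had a change of -0.11, Acly, the ATP citrate lyase, of -0.10, Scd1, the main liver desaturase, of 0.13, and Gpam, which starts glycerolipid synthesis, of 0.09, all with overlapping arrays. Other probe sets of these genes ran otherwise, since the second set of Gpam was apart with 1.07 (adjusted p = 0.083) and that of Scd1 overlapped with 0.75. The other tested sets of Acly both had higher means, apart with 0.36 and overlapping with 0.24. The desaturase genes Fads1 and Fads2 had changes of -0.22 and -0.31, and the factor genes Srebf1 and Mlxipl, which codes for ChREBP, of -0.04 and -0.15. Acaca, the carboxylase of cytosolic fatty acid synthesis, read 2.09 on 11 arrays and 2.24 on the other, close to the lowest value of 2.04, so its probe set gave no comparison in either tissue.

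Set against each other within an array, the classes separated the livers. The mean deviation of the sterol genes from their liver average, minus that of the lipogenic genes, was 0.22, 0.46 and 0.30 in tumor-bearing livers, against -0.21, -0.65 and -0.12 in control livers. All 3 tumor-bearing livers were above 0 and all 3 control livers below it. The difference of the class medians of the log2 changes was 0.74. No p is given for this score, since the members were chosen with results of these data known. The sterol mean alone overlapped between the groups, at -0.03, 0.35 and 0.31 in tumor-bearing livers against 0.01, -0.50 and -0.14 in control livers. Control replicate 2 was below its liver average in every 1 of the 18 sterol genes, and tumor-bearing replicate 1 was near the average.

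**Figure D3:**
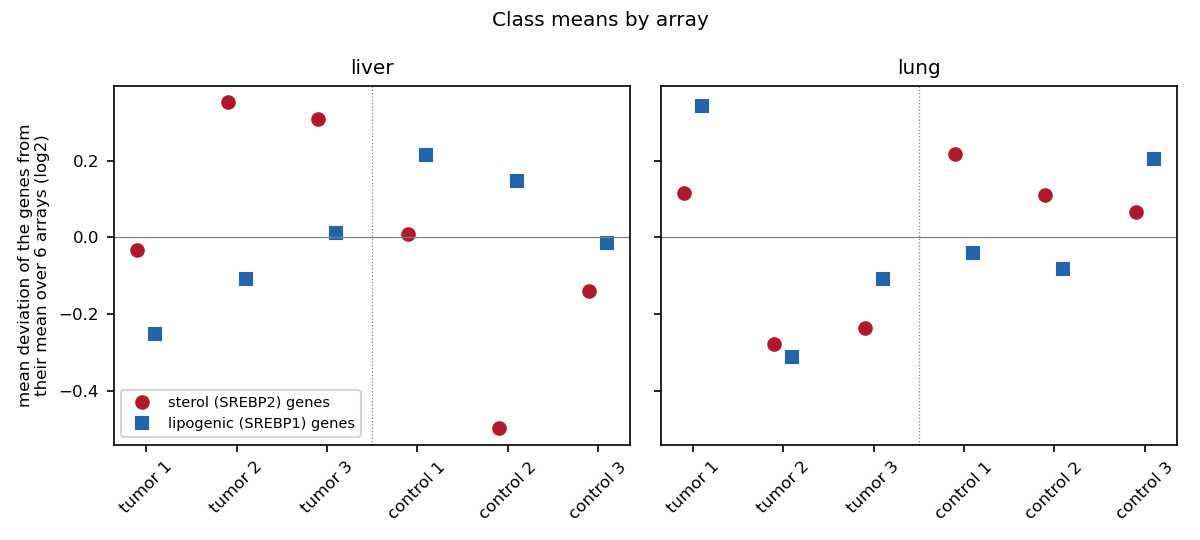
Mean deviation of the sterol genes (red circles) and of the lipogenic genes (blue squares) from their average over the 6 arrays of a tissue, in log2, for each tumor-bearing and control array. In liver the circle is above the square on all 3 tumor-bearing arrays and below it on all 3 control arrays, whereas in lung both orders occur among the tumor-bearing arrays and among the control arrays.

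Leaving out 1 liver array at a time, 14 to 16 sterol genes had a higher mean and the median change ran over 0.38 to 0.62, lowest without control replicate 2. With that array left out, 11 sterol genes were apart and higher (13.6% of all genes) and 2 apart and lower (27.3%). The lipogenic genes apart and lower numbered 5 to 11, and 11 without control replicate 3, when 29.2% of all genes were apart in that direction. Some members did pass under other settings. With a variance trend and robust estimation in limma, Hmgcs1, Sc5d, Dhcr7, Mvk and Me1 passed (adjusted p 0.0330 to 0.0495), when 5.47% of all genes were called (422 of 7712). With all 12 arrays in 1 fit, Hmgcs1 (adjusted p = 0.0088), Mvk, Sc5d and Idi1 passed, when 7.74% of all genes were called (653 of 8433).

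Cell markers in liver were read beside these values. The mean level of 10 hepatocyte markers was 15.56 to 15.60 in tumor-bearing and 15.50 to 15.54 in control livers, with 9 of the 10 higher and a median change of 0.08. Of 10 neutrophil markers, 4 passed the filter, all with higher means (median change 1.93, none called), and their mean level was 7.04 to 7.63 in tumor-bearing and 4.23 to 6.34 in control livers. Ltf, a defining neutrophil granule gene, read 2.19 or less on all liver arrays. Macrophage markers had higher means in 8 of 8 tested genes (median change 0.28), at a mean level of 10.86 to 11.10 in tumor-bearing and 10.57 to 10.82 in control livers. Of 8 proliferation markers, 3 passed the filter, and all 3 were apart and higher with none called, namely Mcm5 (2.45), Mcm6 (1.76) and Rrm2 (1.17). Mcm5 read 4.41, 5.65 and 8.53 in tumor-bearing livers, against 3.82, 3.30 and 4.12 in control livers. It thus passed the filter mainly through tumor-bearing arrays, and replicate 3 stood far above the others. The mean level of the 3 markers was 6.60 to 8.55 in tumor-bearing and 5.21 to 5.76 in control livers. The part of these cells in the members' values was not tested.

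Genes around the members were given by lists made for this comparison. None passed in liver. Of 8 tested genes of SREBP processing and control, 7 had higher means. Usf1, a factor that acts on lipogenic promoters, read 7.12, 6.96 and 7.05 in tumor-bearing livers, against 6.55, 6.33 and 6.19 in control livers, without overlap (change 0.69, adjusted p = 0.0529). Insig2, an endoplasmic reticulum anchor of SREBP, had a change of 0.38 with overlapping arrays. Of 5 tested genes listed as other sterol steps, 2 had higher means, with the largest changes for Acat1 (0.56) and Ggps1 (-0.37). The only gene of this list with arrays apart was Tm7sf2, which was lower (-0.27), as 22.7% of all genes were. Sterol uptake, efflux and storage genes were higher in 6 of 9, led by Mylip (-0.32) and Abcg8 (0.32). Other fatty acid and triglyceride genes were higher in 8 of 16, led by Mid1ip1 (0.68) and Dgat1 (-0.54, adjusted p = 0.0668). NADPH and sugar supply genes were lower in 5 of 7, led by Tkt (-0.31) and Slc2a2 (-0.26).

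In lung, the sterol genes had lower means in tumor-bearing mice for the most part. Of the 16 sterol genes tested, 13 had a lower mean and the median change was -0.22, while over all 7907 genes tested the median was -0.01 and 52.9% of means were lower. Of the 14 lipogenic genes tested, 8 had a lower mean, with a median of -0.06. Mvk and Hsd17b7, and Acaca, Acacb, Pklr and Mlxipl, did not read above 4 on 3 lung arrays and were not tested there. No member passed, against 0.734% of all genes (58 genes). At an unadjusted p under 0.05, 3 sterol genes were lower, against 6.46% of all genes, and 1 lipogenic gene was higher, against 6.72%, with 13.2% of all genes past it in either direction. The arrays were apart and lower for 4 sterol genes (25%, against 9.57% of all genes), and for 1 lipogenic gene in each direction (8.99% of all genes were apart and higher).

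Among the sterol genes Lss had the largest difference in lung. It read 5.92, 5.59 and 6.52 in tumor-bearing lungs, against 7.64, 7.06 and 7.24 in control lungs, with every tumor-bearing array lower. The means were 6.01 ± 0.47 and 7.32 ± 0.30 (SD, n = 3 each), a change of -1.31 ± 0.27 (SE, 2.47-fold lower, adjusted p = 0.126). The other tested probe set of Lss had a change of 0.02 with overlapping arrays, so the probe sets of this gene did not show the same pattern. The set used carries the _s_at suffix, which marks probes shared by several transcripts.

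Other sterol genes had smaller differences in lung. Pmvk, the phosphomevalonate kinase, read 8.68, 9.15 and 8.60 in tumor-bearing lungs, against 9.45, 9.42 and 9.22 in control lungs (change -0.55 ± 0.17 SE, adjusted p = 0.254). Fdps read 10.04, 9.70 and 9.25 in tumor-bearing lungs, against 10.13, 10.40 and 10.02 in control lungs (change -0.52, adjusted p = 0.399). Pmvk was apart and Fdps overlapped through tumor-bearing replicate 1. Sqle read 8.88, 8.16 and 7.32 in tumor-bearing lungs, against 8.50, 8.82 and 8.57 in control lungs, with replicate 1 the highest of all 6 (change -0.51, adjusted p = 0.636). Fdft1 read 9.38, 8.77 and 9.40 in tumor-bearing lungs, against 9.42, 9.53 and 9.42 in control lungs (change -0.27, adjusted p = 0.605). Its groups were apart by a gap of only 0.02. Ebp read 10.08, 9.87 and 9.92 in tumor-bearing lungs, against 10.24, 10.29 and 10.30 in control lungs (change -0.32 ± 0.09 SE, adjusted p = 0.225). Here all 3 tumor-bearing arrays were lower. The other sterol genes tested had changes of -0.28 to 0.20 with overlapping arrays. Among them Hmgcs1, the member nearest the threshold in liver, had 0.07 in lung.

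Lipogenic members in lung were led in size by Thrsp. Thrsp read 9.11, 4.05 and 5.19 in tumor-bearing lungs, against 6.50, 6.83 and 9.44 in control lungs (change -1.48 ± 1.47 SE, adjusted p = 0.719). Its highest values were on tumor-bearing replicate 1 and control replicate 3, the arrays with the highest Alb. The mean deviation of the 6 hepatocyte markers tested in lung was 3.62, -2.04 and -2.56 in tumor-bearing lungs, against -0.51, -3.01 and 4.50 in control lungs. Their mean level was 5.23 to 11.41 in tumor-bearing and 4.78 to 12.30 in control lungs, and their part in the members' values was not tested beyond leaving out both arrays, given below.

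**Figure D4:**
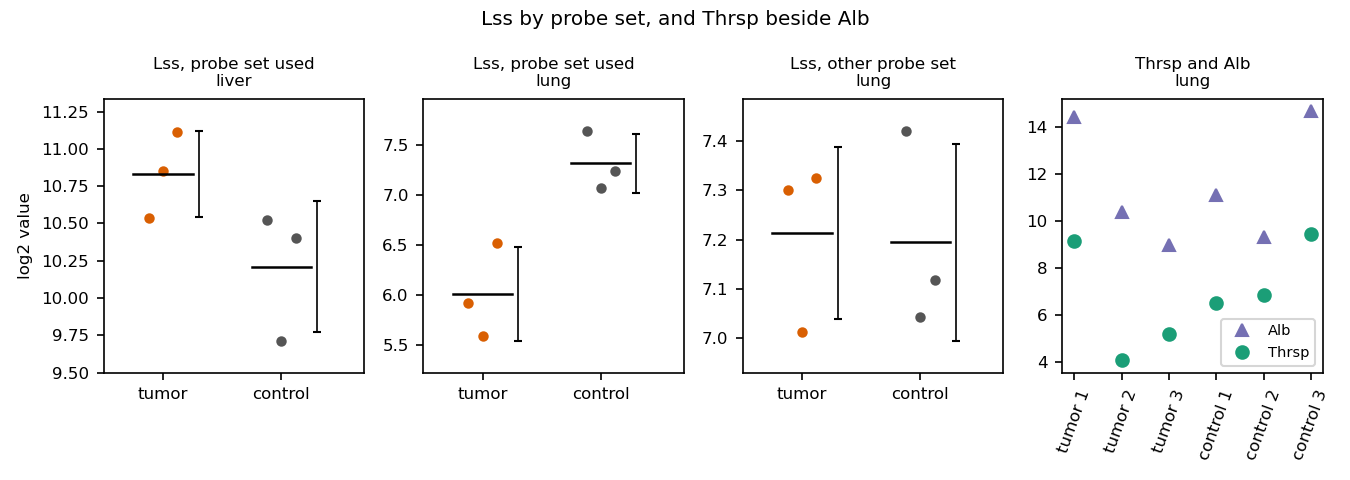
Log2 values of Lss by probe set in liver and lung, tumor-bearing (orange) left of control (grey) with mean and SD (n = 3 each), and of Thrsp (circles) and Alb (triangles) on each lung array. Axes do not begin at 0, and levels of Thrsp and Alb are not comparable with each other. The Lss set used separates the groups in lung and the other set does not, and Thrsp and Alb are both highest on tumor 1 and control 3.

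Dgat2 read 6.44, 7.00 and 6.46 in tumor-bearing lungs, against 5.37, 5.41 and 6.59 in control lungs (change 0.84, adjusted p = 0.414). Control replicate 3 lay within the tumor-bearing range. The other probe set of Dgat2 had -0.07 with overlapping arrays. Elovl6 read 5.77, 5.11 and 5.89 in tumor-bearing lungs, against 5.50, 4.82 and 5.20 in control lungs (change 0.41, adjusted p = 0.578), with overlap. Its other probe set had -0.59, and with the mean of both sets the sign of Elovl6 turned (-0.09). Fasn read 11.65, 10.79 and 10.97 in tumor-bearing lungs, against 11.43, 11.71 and 11.44 in control lungs, where replicate 1 of the tumor-bearing mice again sat within the control range (change -0.39, adjusted p = 0.559). Fads2, the delta-6 desaturase, read 8.86, 8.53 and 8.66 in tumor-bearing lungs, against 8.46, 8.40 and 8.20 in control lungs (change 0.33, adjusted p = 0.351). Elovl5 read 13.49, 13.51 and 13.60 in tumor-bearing lungs, against 13.72, 13.73 and 13.69 in control lungs (change -0.18, adjusted p = 0.417). Fads2 was the lipogenic gene apart and higher, and Elovl5 the one apart and lower. On the sets used, the other lipogenic genes tested had changes of -0.18 to 0.13 and overlapped. Other sets of Scd2, Me1 and Acss2 were apart and lower, each at -0.44, and that of Gpam overlapped with -1.03. Over all tested probe sets in lung, 20 of 27 lipogenic sets had lower means (median -0.18), and 17 of 25 sterol sets did (median -0.11). In each class 4 sets were apart and lower, and 1 lipogenic set was apart and higher. Shares over all lung probe sets were not taken, so these counts have no background of their own kind. By gene, 52.9% of all means were lower in lung, with 9.57% of genes apart and lower and 8.99% apart and higher.

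Within a lung array the classes did not separate the groups. The sterol minus lipogenic score was -0.23, 0.04 and -0.13 in tumor-bearing lungs, against 0.26, 0.20 and -0.14 in control lungs, and control replicate 3 lay among the tumor-bearing arrays. The difference of the class medians was -0.17, and with every probe set by itself it was 0.07. Without both arrays rich in hepatocyte transcripts, an alternative known from earlier results of these data, 13 of the 16 sterol genes had lower means, with a median of -0.38. In that case 11 sterol genes were apart and lower (68.8%) and 6 of the 14 lipogenic genes (42.9%), when 23.4% of all genes were. Without tumor-bearing replicate 1 alone 10 sterol genes (62.5%) and 4 lipogenic genes (28.6%) were apart and lower, against 15.2% of all genes. Probe sets of 5 of the 7 sterol genes with several tested sets disagreed in sign in lung, namely Cyp51, Hmgcs1, Lss, Srebf2 and Stard4.

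Lung neutrophil markers were higher in tumor-bearing mice in 10 of 10 genes, and 5 of them passed. Ltf, Camp, Mmp8, Cxcr2 and Cd177 read below 4 on every control lung array. They passed the filter through tumor-bearing arrays alone and had to be higher, so their direction is no separate result. The mean level of the 10 markers was 9.41 to 10.23 in tumor-bearing and 5.20 to 6.12 in control lungs. Alveolar type II markers had a median change of 0.03 over 7 genes, at 14.11 to 14.53 in tumor-bearing and 14.25 to 14.45 in control lungs. Of 4 adipocyte markers tested 3 had lower means, at 6.37 to 6.55 in tumor-bearing and 6.45 to 7.52 in control lungs, and Adipoq, the defining one, read 2.23, 2.04 and 2.04 in tumor-bearing lungs against 2.04, 3.10 and 3.96 in control lungs. The part of these cells in the members' values was not tested. Among the surrounding lists none passed in lung. The largest changes were for Lpin1, a phosphatidate phosphatase (-0.79, adjusted p = 0.136), and Pnpla3 (0.55) among fatty acid genes, for Khk (-0.70) and Gpd1 (-0.63) among sugar supply genes, and for Erlin1 (-0.62) and Usf1 (-0.29) among SREBP control genes. Tm7sf2 (-0.36) and Lbr (0.31) led the other sterol steps, and Scarb1 (0.30) and Npc1 (-0.23) the sterol traffic genes. By count, 3 of 5 other sterol genes, 2 of 8 SREBP control genes, 3 of 7 traffic genes, 5 of 16 fatty acid genes and 3 of 6 sugar supply genes had higher means.

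Whether the tumor effect differed between the tissues was tested as an interaction on all 12 arrays, liver minus lung. Lss was the only member to pass, against 1.55% of all 8433 genes (131 genes). Its change was 0.62 in liver and -1.31 in lung, a difference of 1.93 ± 0.40 (SE, adjusted p = 0.0494). The call was close to the threshold. It was kept under 7 of 24 alternatives (adjusted p 0.0325 to 0.189), and the mean of the probe sets of Lss gave a difference of 0.84. With the numbers of the descriptions as a block, Lss did not pass (1.93, adjusted p = 0.0614), and 14 genes and 0 members were called. The interaction uses the arrays of both comparisons above and is not independent of them. Over the sterol class the difference was positive in 16 of 18 genes, against 43.5% of all genes. The median was 0.63, against -0.05 over all genes, and 9 had an unadjusted p under 0.05 with a positive sign, against 6.26% of all genes. After Lss the lowest adjusted p values were those of Hmgcs1 (0.83 ± 0.20 SE, adjusted p = 0.0809) and Idi1 (1.02 ± 0.27 SE, adjusted p = 0.0987). Lipogenic genes were divided, with 8 of 17 positive and a median of -0.22. These counts include Mvk and Hsd17b7 of the sterol genes and Acacb, Pklr and Mlxipl of the lipogenic genes. Those genes were not tested in lung and passed the filter here only through liver arrays, so their differences rest on low lung values. On the sets used, Elovl6 (-1.57 ± 0.50 SE, adjusted p = 0.152) and Dgat2 (-1.13 ± 0.41 SE, adjusted p = 0.203) ran opposite to the sterol genes. Their other probe sets had smaller differences, -0.39 for Elovl6 and -0.09 for Dgat2. Thrsp had 1.24 ± 1.60 (SE, adjusted p = 0.742).

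Control liver was set against control lung to place the members in normal tissue. These are the same control arrays as above, so the comparison is not independent of the others. Means were above 4 in both tissues for 16 sterol and 14 lipogenic genes. Of these, 15 sterol genes were called higher in liver, and 13 lipogenic genes were called higher and 1 lower. Among all 7153 genes with such means, 34.8% were called higher and 43.6% lower. The members not above 4 on any control lung array, Mvk, Hsd17b7, Acacb, Pklr and Mlxipl, passed the filter through liver alone, had to differ and are left out of these counts. Against the value of 4, they were at least 1.81-fold higher in liver for Mvk, 8.20-fold for Hsd17b7, 37.1-fold for Acacb, 137-fold for Pklr and 188-fold for Mlxipl. Of the 30 members above 4 in both tissues, Srebf2 was the only one not called, at 7.25 ± 0.17 in control livers and 7.50 ± 0.36 in control lungs (difference -0.25, adjusted p = 0.294).

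The sterol genes with the largest differences were Dhcr7, Sc5d, Hsd17b7, Mvd and Lss. Dhcr7 read 12.11, 11.92 and 11.93 in control livers, against 7.53, 7.60 and 6.94 in control lungs (24.7-fold, adjusted p = 3.33e-06). Sc5d read 13.09, 12.81 and 13.21 in control livers, against 8.68, 8.53 and 8.45 in control lungs (22.4-fold, adjusted p = 7.89e-07). Both were apart by several log2 units. Hsd17b7 read 7.27, 6.81 and 7.02 in control livers, against 2.99, 3.05 and 2.30 in control lungs, below the value of 4. Mvd read 9.52, 7.66 and 8.15 in control livers, against 5.10, 4.91 and 4.91 in control lungs (11.1-fold, adjusted p = 0.000664), and Lss was 7.43-fold higher in control liver (adjusted p = 0.000104). In Dhcr7, Sc5d, Mvd and Lss every liver array was above every lung array, as in 37.2% of all genes.

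Lipogenic genes spread more widely between the tissues. Mlxipl read 11.70, 11.62 and 11.35 in control livers, against 2.90, 2.90 and 3.57 in control lungs, with control replicate 3, the array rich in Alb, the highest of the lungs. Pklr read 11.11, 11.14 and 11.04 in control livers, against 3.27, 2.98 and 2.98 in control lungs. Both lung levels were near the bottom of the scale. Dgat2 read 13.29, 13.27 and 13.19 in control livers, against 5.37, 5.41 and 6.59 in control lungs (176-fold, adjusted p = 4.83e-06). Thrsp read 15.49, 15.43 and 15.43 in control livers, against 6.50, 6.83 and 9.44 in control lungs (232-fold, adjusted p = 0.000157). The lung values of Dgat2 and Thrsp were highest on control replicate 3, and without that array Thrsp was 441-fold higher in control liver (log2 difference 8.78, against 7.86 with it). Scd2 went the other way and was the only member called lower in liver, with 7.63, 7.54 and 6.92 in control livers, against 14.72, 14.71 and 14.66 in control lungs (log2 difference -7.33, adjusted p = 6e-07). Its paralog Scd1 read 13.69 ± 0.22 in control livers and 12.70 ± 0.15 in control lungs, a log2 difference of 0.99.

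**Figure D5:**
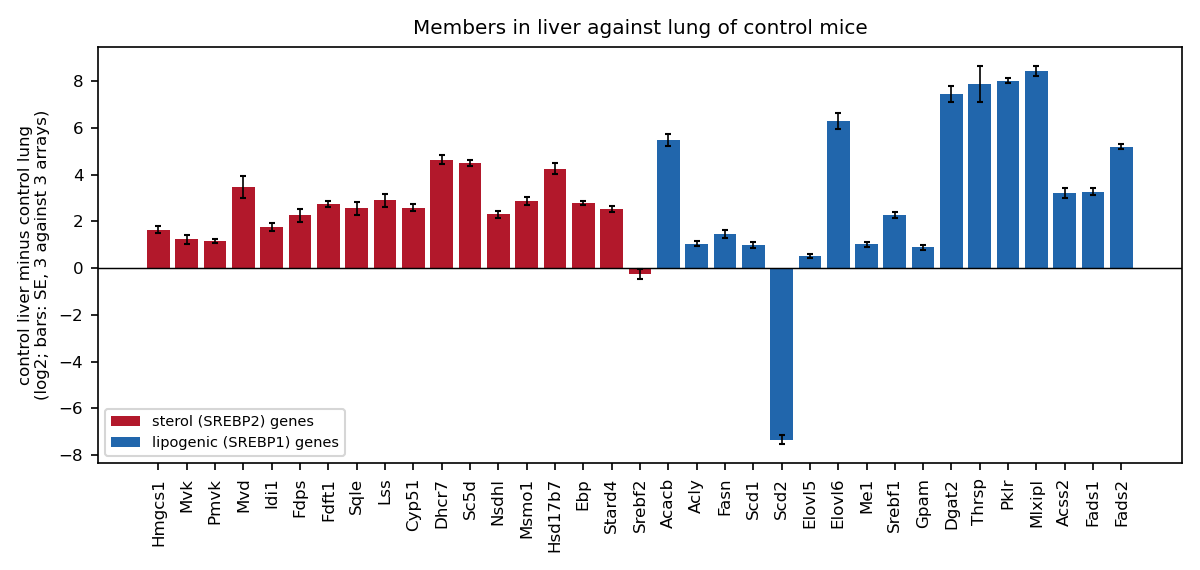
Log2 difference of each member, control liver minus control lung, with the standard error of the limma fit on 3 against 3 arrays; red bars are sterol genes and blue bars lipogenic genes. All bars but those of Srebf2 (-0.25) and Scd2 (-7.33) point upward, and for Mvk, Hsd17b7, Acacb, Pklr and Mlxipl the lung value was at or under 4.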

How the data were processed

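The authors deposited log2 expression values for 12 arrays. GCRMA, a sequence-based background correction with quantile normalization, and limma are the tools named per the submitters' processing notes, without version or settings. The platform annotation gave 1 symbol for 20380 of 22626 probe sets, several for 691 and no entry for 1555, and only the first were used. For each gene the set with the highest mean over 12 arrays was taken. A gene was tested where at least 3 of the arrays fitted read above 4. limma 3.58.1 (lmFit and eBayes, R 4.3.3) was fitted to all genes, with Benjamini-Hochberg adjustment over all genes tested and a threshold of 0.05. Tumor-bearing and control arrays were compared within each tissue, the difference of these effects on all 12 arrays, and control liver with control lung. On simulated data, with 200 genes changed, the liver fit recovered 56.5% at a log2 change of 1 and 92% at a log2 change of 2.

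The members and lists were chosen with earlier results of these data known. Members were described by array where they passed the threshold, had arrays that did not overlap, or were among the 5 largest changes per class and tissue, and of the other lists the 2 largest changes were named. Alternatives covered the filter, probe sets, normalization, limma options, replicate blocks and arrays left out. Replicate numbers did not pair the arrays and were not used as pairs. Promoter windows came from RefSeq (GRCm38.p6) by symbol.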

Additional observations from a re-analysis of the deposited data

Results flagged for a closer look

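The difference of the tumor effect between liver and lung was past the threshold for Lss among the members and for Dgat1 among the surrounding genes, by the interaction test of limma. For Lss the difference was 1.93 (adjusted p = 0.0494), with changes of 0.62 in liver and -1.31 in lung, and it rests on 1 of its probe sets. Dgat1, which makes triglyceride as Dgat2 does but is unrelated to it in sequence, read 8.73, 8.72 and 8.96 in tumor-bearing livers, against 9.39, 9.45 and 9.18 in control livers (change -0.54, adjusted p = 0.0668). In lung Dgat1 read 8.92, 8.94 and 8.80 in tumor-bearing mice, against 8.48, 8.55 and 8.44 in control mice (change 0.39, adjusted p = 0.136). Each tissue was apart, lower in tumor-bearing livers and higher in tumor-bearing lungs, and the difference between the tissues was -0.93 ± 0.14 (SE, adjusted p = 0.0159).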

How the results depend on the processing

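The number of members called in liver was 0 and became 1 with every probe set by itself, 2 with a filter above 6 and 2 with median centring, 5 with trend and robust estimation, 5 at a threshold of 0.1 and 4 with all 12 arrays in 1 fit. The number of genes called in liver (144) was 62 without a filter, 351 with a filter above 6, 226 with median centring, 94 with further quantile normalization, 422 with trend and robust estimation, 828 at a threshold of 0.1 and 653 with all 12 arrays, and 0 to 1 with 1 array left out. In lung 1 member was called with all 12 arrays in 1 fit. The genes called there (58) were 11 without a filter, 114 with trend and robust estimation, 99 with array weights, 155 at a threshold of 0.1, 220 with all 12 arrays, 0 without both arrays rich in hepatocyte transcripts and 0 to 14 with 1 array left out. The difference of class medians in lung (-0.17) was 0.069 with every probe set by itself, and -0.25 to -0.12 with 1 array left out. That of liver was 0.59 to 0.83 with 1 array left out. For the difference between tissues (131 genes, 1 member), 328 genes and 3 members were called at a threshold of 0.1, 41 genes without both hepatocyte-rich arrays, and 51 to 137 genes and 0 to 1 members with 1 array left out. Its member count was 0 without a filter, with a filter above 6 and with the mean of probe sets, and 2 with trend and robust estimation. In control liver against control lung, 10931 probe sets and 60 member probe sets were called with every probe set by itself. With 1 array left out, 5845 to 6072 genes and 29 to 35 members were called. With all arrays, 6705 of 8270 genes and 34 members were. The 34 include Mvk, Hsd17b7, Acacb, Pklr and Mlxipl, which passed the filter through liver alone and had to differ. Title numbers did not pair the arrays (correlations of deviations -0.223 to 0.203). The replicate block left 0 genes called in liver, 1 in lung and 70 in the difference, and a block by the numbers of the descriptions left 14 genes and 0 members there. Each array correlated best with its own such number in 6 of 6, a hint from the data only, with correlations of 0.0373 to 0.132. Of the values of single genes, 729 stayed on their side of the threshold with the same sign, 19 became past it and 17 no longer passed (all of Lss). Elovl6 in lung had -0.090 with the mean of probe sets, against 0.41 with 1 probe set, and the cause was not tested. Values near the lowest value of 2.04 carry little signal over background, and differences there are limited by it.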
